A study of Sus scrofa with 3 samples.

Results

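The miR-10 and miR-196 miRNAs of the HOX gene clusters were followed in the psoas major of pigs aged 63, 98 or 161 d. A miRNA was included if it was listed under a porcine mature name of miR-10 or miR-196, whatever its letter or arm. This gave 6 of the 276 porcine mature miRNAs in the files, namely ssc-miR-10b, ssc-miR-10a-5p, ssc-miR-10a-3p, ssc-miR-196a, ssc-miR-196b-5p and ssc-miR-196b-3p. All 6 had reads in each of the 3 libraries. The rule of inclusion used names and no measured value, but it was set with earlier results of these data known. The animals of all 3 ages were castrated male hybrids of Landrace, Large White and Duroc labelled as fattening pigs. Their diet was changed with body weight during growth, so that age and diet cannot be told apart. The RNA of the pigs of 1 age was pooled into 1 small RNA library, so the spread between pigs was not measured. No test of age was possible, and every interval below covers counting error only. In bulk muscle, fewer cells of a type and less RNA per cell cannot be told apart.

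The HOX genes code for transcription factors that set position along the body axis of the embryo, and they lie in 4 clusters. The miR-10 genes sit among HOX genes of anterior and middle position and the miR-196 genes among those of posterior position. In the embryo both families are expressed along the axis in domains that resemble those of the HOX genes around them. Several HOX mRNAs are known targets of the same miRNAs, among them HOXD10 for miR-10b and HOXB8, whose mRNA is cleaved under the direction of miR-196a. The psoas major is a muscle of the loin, which arises from the lumbar vertebrae.

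The mature sequences show how alike the members of each family are. They are given 5′ to 3′ as DNA letters, as the files list them, with the seed (bases 2 to 8, the stretch that pairs with target mRNAs) in capitals.

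ssc-miR-10a-5p: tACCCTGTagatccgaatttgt
ssc-miR-10b: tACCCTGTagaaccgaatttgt
ssc-miR-196a: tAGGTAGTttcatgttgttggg
ssc-miR-196b-5p: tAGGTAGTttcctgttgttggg
ssc-miR-10a-3p: cAAATTCGtatctaggggaat
ssc-miR-196b-3p: cGACAGCAcgacactgccttca

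The 5p sequences of miR-10 differed by 1 base outside the seed, T12A from ssc-miR-10a-5p to ssc-miR-10b, with positions counted from 1 at the 5′ end. The 5p sequences of miR-196 likewise differed by 1 base, A12C from ssc-miR-196a to ssc-miR-196b-5p. Among the 276 porcine names, the miR-10 seed ACCCTGT was found in 2, ssc-miR-10a-5p and ssc-miR-10b. The miR-196 seed AGGTAGT was also found in 2, ssc-miR-196a and ssc-miR-196b-5p. The 3p sequences had seeds of their own.

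Each family has relatives whose seed is shifted or altered, shown here for comparison because they were measured in the same libraries.

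ssc-miR-100: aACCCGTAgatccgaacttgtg
ssc-miR-99a: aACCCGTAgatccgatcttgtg
ssc-let-7a: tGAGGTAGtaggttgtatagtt

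The seed ACCCGTA was shared by 3 names, ssc-miR-99a, ssc-miR-99b and ssc-miR-100, which resemble miR-10 over much of their length. The let-7 seed GAGGTAG was shared by 8 names, and its last 6 bases are the first 6 of the miR-196 seed.

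The genes of the members lie in several HOX clusters. In the RefSeq gene order of assembly Sscrofa11.1, 4 of the 6 porcine hairpin names of these families were matched. ssc-mir-10a lies between HOXB3 and HOXB5, and ssc-mir-196a-1 between HOXB8 and HOXB13 of the same cluster. ssc-mir-196a-2 lies between HOXC10 and HOXC9, and ssc-mir-10b between HOXD8 and HOXD3. These are the nearest coding genes with a symbol on either side. ssc-mir-196b-1 and ssc-mir-196b-2 were not matched. The deposited files place the hairpins on genome sequences whose chromosome and build are not given in the sources used here. There, ssc-mir-10a spans bases 24791244 to 24791364 on the minus strand and ssc-mir-196a-1 bases 24836761 to 24836862 on the plus strand of the same sequence, 45396 bases apart. ssc-mir-196a-2 spans bases 19654956 to 19655065 (minus strand), ssc-mir-10b bases 91419007 to 91419114 (plus strand) and ssc-mir-196b-2 bases 49836541 to 49836625 (plus strand), on 3 other sequences.

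The deposited files listed 1464699, 2418187 and 2242716 reads at 63, 98 and 161 d, of which 90.1 to 91.2% were at porcine mature names. Levels are given in RPM, the reads of a miRNA per 1000000 listed reads, and 3 reads correspond to 2.05, 1.24 and 1.34 RPM in the 3 libraries. The tissue label was checked with miRNAs of muscle fibres. All 6 of them, among them ssc-miR-1 and ssc-miR-133a-3p, were present, with summed levels of 449847, 400457 and 465506 RPM at 63, 98 and 161 d. Most of each sum was ssc-miR-133a-3p, at 432681, 361663 and 439710 RPM, so the sums say little about the other 5.

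The miR-10 family was abundant in this muscle and the miR-196 family was of middle level. The level of ssc-miR-10b was 26630 RPM at 63 d, 44662 RPM at 98 d and 40837 RPM at 161 d, from 39004.5, 108000.0 and 91585.5 reads. It ranked 6th, 3rd and 4th of the 276 porcine mature miRNAs and took 2.66, 4.47 and 4.08% of all listed reads. The 63 d library was the low one, and its 95% Wilson interval of 26370 to 26892 RPM did not overlap those of 98 d (44402 to 44923 RPM) and 161 d (40579 to 41097 RPM).

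ssc-miR-10a-5p had the same course at a level about 10 times lower. It stood at 2699 RPM at 63 d (2616 to 2784), 4640 RPM at 98 d (4555 to 4727) and 4423 RPM at 161 d (4337 to 4510). Its rank was 29, 29 and 26. Again the 63 d library was low and the 2 later libraries lay close together, although their intervals did not overlap.

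ssc-miR-196a was at a similar level in the 2 earlier libraries and lower in the last. Its level was 588 RPM at 63 d (549.9 to 628), 639 RPM at 98 d (608 to 672) and 292 RPM at 161 d (270.4 to 315). The intervals of 63 and 98 d overlapped, and that of 161 d lay below both. Its rank went from 67 and 72 to 93.

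In RPM, ssc-miR-196b-5p was lower in each later library, at 609.7 RPM at 63 d (571 to 651), 481 RPM at 98 d (454 to 509.6) and 316 RPM at 161 d (294 to 340.4). None of these intervals overlapped. It ranked 64, 81 and 87.

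The 3p arms were rare. ssc-miR-10a-3p had 11, 37 and 12 reads at 63, 98 and 161 d, or 7.51, 15.3 and 5.35 RPM, and ssc-miR-196b-3p had 4, 5 and 7 reads, or 2.73, 2.07 and 3.12 RPM. The levels of ssc-miR-196b-3p were close to the 3-read limit, and its 3 intervals overlapped.

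**Figure D1:**
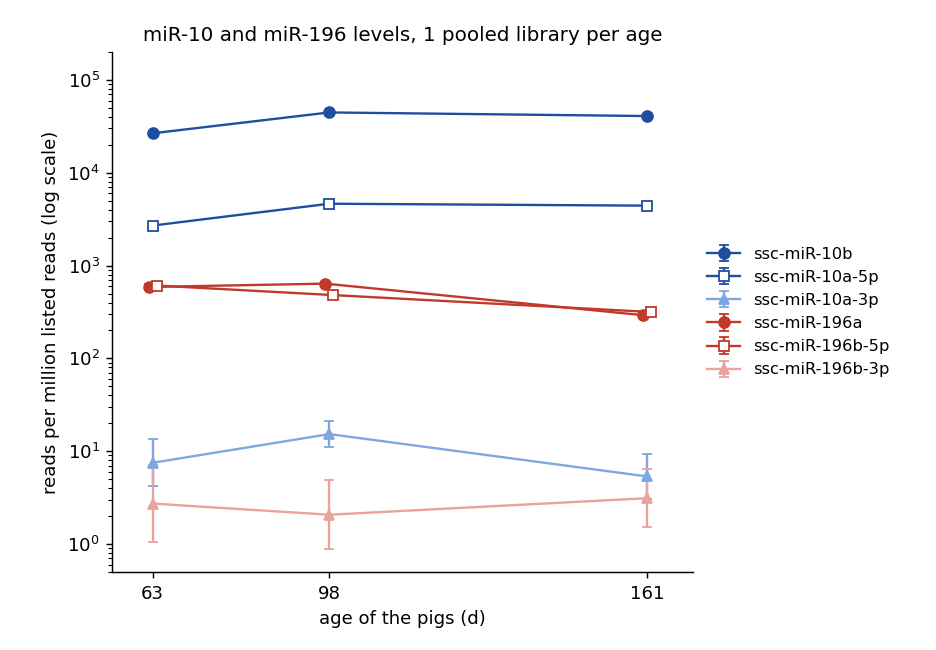
Level of each of the 6 members in RPM (vertical axis, log scale) against age in days (horizontal axis), with 1 pooled library per age and bars for the 95% Wilson interval of counting error. The miR-10 5p members (blue) are higher at 98 and 161 d than at 63 d, whereas the miR-196 5p members (red) are lowest at 161 d, at 292 and 316 RPM. The red points are set slightly apart in age so that both can be seen.

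Folds are the RPM of the later library over that of the earlier one, with an exact 95% Clopper-Pearson interval, and a fold above 2 or below 0.5 was counted as past the limit. The libraries were also brought to a common scale in 5 other ways. These used the clean reads left after the filters of the authors, the factors with which the authors normalised their reads, TMM and median of ratios (which assume that most miRNAs keep their level), and the listed reads without ssc-miR-133a-3p, the most abundant muscle miRNA here. From 63 to 98 d, ssc-miR-10b was 1.68 times as high (1.66 to 1.70) and ssc-miR-10a-5p 1.72 times (1.66 to 1.78). ssc-miR-196a was 1.09 times as high (1.000 to 1.18), and ssc-miR-196b-5p was at 0.789 of its earlier level (0.723 to 0.862). The median fold of the 247 porcine miRNAs with at least 10 reads in the 2 libraries together was 1.22. Relative to it the miR-10 members lay above the median and both miR-196 members below. Of the 5 members among these 247, 1 was past the limit, ssc-miR-10a-3p with a fold of 2.04 (1.02 to 4.43), where 17.0% of all miRNAs tested were. Its fold was 3.00 by clean reads and 1.68 to 1.88, within the limit, under the other 4 scalings. By clean reads ssc-miR-10b (2.47) and ssc-miR-10a-5p (2.53) were past the limit as well. The direction of ssc-miR-196b-5p depended on the scaling in this pair. Its fold was 1.16 by clean reads and 0.650 to 0.727 under the other 4 scalings.

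From 98 to 161 d, ssc-miR-196a was at 0.457 of its earlier level (0.416 to 0.501) and ssc-miR-10a-3p at 0.350 (0.166 to 0.686), both past the limit. ssc-miR-196b-5p was at 0.657 (0.597 to 0.722). ssc-miR-10b was at 0.914 (0.906 to 0.922) and ssc-miR-10a-5p at 0.953 (0.928 to 0.979). With 2 of the 6 members past the limit, both downwards, the share of all 247 miRNAs past it was 14.6% and the median fold 0.809. ssc-miR-196a held place 27 of the 247 from the lowest fold, and ssc-miR-10a-3p place 14. The direction of the miR-10 5p members depended on the scaling in this pair. Their summed fold was 0.918 by all listed reads and 0.767 by clean reads, but 1.14 by the scaling of the authors, 1.11 by TMM, 1.14 by median of ratios and 1.05 without ssc-miR-133a-3p. The fold of ssc-miR-196a was below 1 under each of these scalings, and it was past the limit only by all listed reads and by clean reads (0.382), and otherwise 0.520 to 0.568.

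From 63 to 161 d, ssc-miR-10b was 1.53 times as high (1.52 to 1.55) and ssc-miR-10a-5p 1.64 times (1.58 to 1.70). ssc-miR-196a was at 0.497 of its earlier level (0.448 to 0.551) and ssc-miR-196b-5p at 0.519 (0.469 to 0.573). These 2 folds lay on either side of the limit of 0.5, and each interval contained the limit. Thus 1 of 6 members was counted as past it, against 18.5% of 243 miRNAs, whose median fold was 1.01. Under the other 5 scalings ssc-miR-196a was at 0.503 to 0.610 and within the limit. By clean reads the 1 member past it was ssc-miR-10a-5p instead, upwards at 2.01. ssc-miR-10a-5p held place 35 from the highest fold and ssc-miR-10b place 45, whereas ssc-miR-196a and ssc-miR-196b-5p held places 27 and 30 from the lowest. The 3 pairs share libraries, so that these folds are not independent of each other.

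**Figure D2:**
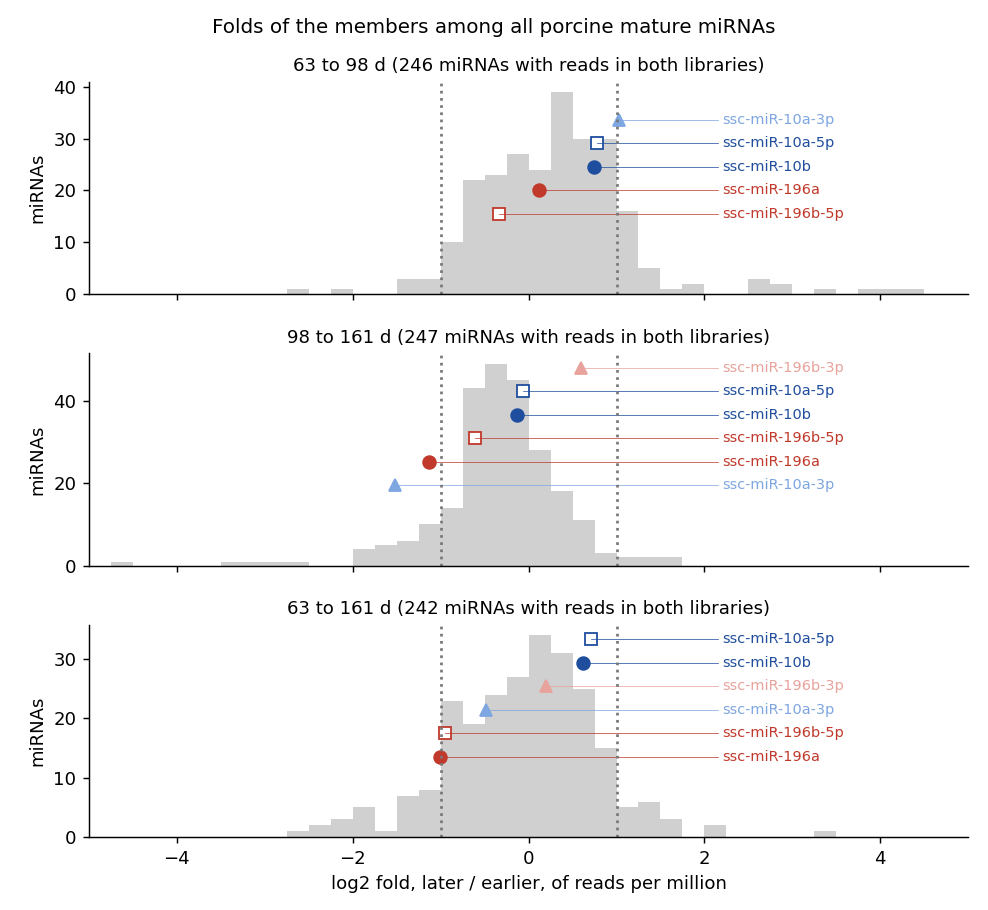
Number of porcine mature miRNAs (vertical axis) by log2 fold of RPM, later over earlier library (horizontal axis, bins of 0.25), for miRNAs with at least 10 reads in the pair together and reads in both libraries. Markers give the log2 folds of the members, their height has no meaning, and dotted lines mark 2-fold. From 63 to 161 d the miR-10 5p members lie to the right, at 0.71 and 0.62, and the miR-196 5p members to the left, at -1.01 and -0.95.

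The split of all miRNAs past the limit moved with the scaling. From 63 to 98 d, 34 were up and 8 down by all listed reads, 101 and 2 by clean reads, and 17 and 23 by median of ratios. From 98 to 161 d, 6 were up and 30 down by all listed reads and 13 and 15 by the scaling of the authors. From 63 to 161 d, 18 were up and 27 down by all listed reads and 37 and 16 by clean reads. The directions that all 6 scalings shared for the 5p members were a higher miR-10 sum at 98 and 161 d than at 63 d, and a lower miR-196 sum at 161 d than at either earlier age. From 63 to 98 d the miR-196 sum had a fold of 0.935 by all listed reads, 0.770 to 0.862 under 4 scalings and 1.38 by clean reads.

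**Figure D3:**
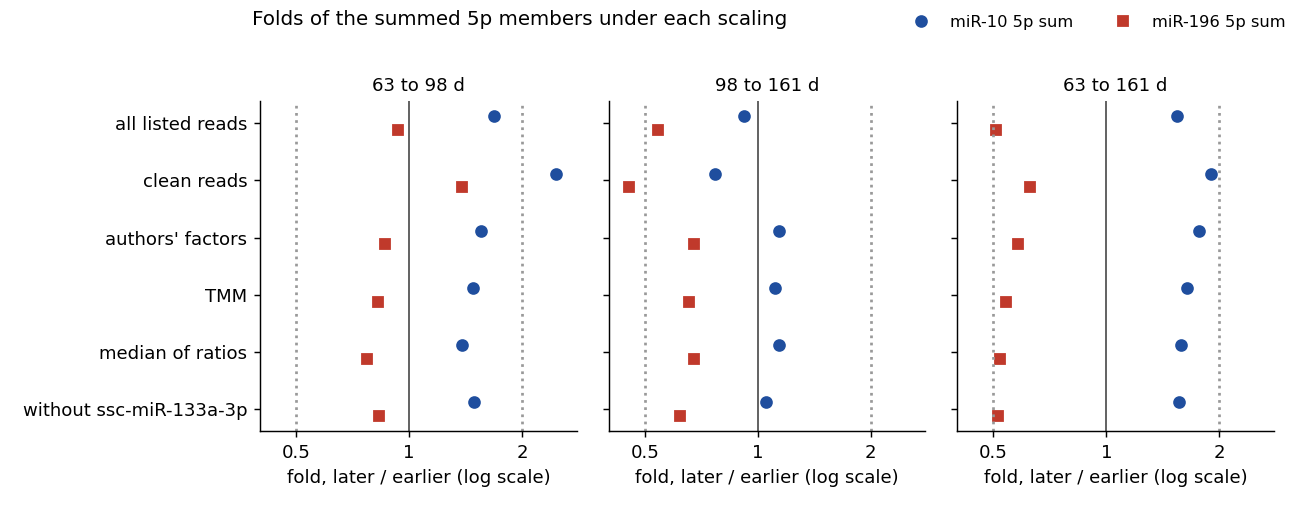
Fold of the later over the earlier library (horizontal axis, log scale) of the summed miR-10 5p members (circles) and the summed miR-196 5p members (squares) under 6 scalings (vertical axis). The solid line marks equal levels and dotted lines mark 2-fold. A scaling moves the circle and the square of a pair by the same factor, so the distance between them is the same in each row. From 98 to 161 d the circles fall on both sides of 1, between 0.767 and 1.14.

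Ratios of members within a library do not depend on the scaling between libraries. The reads of the miR-10 5p members together were 24.5 times those of the miR-196 5p members at 63 d (Clopper-Pearson interval 23.3 to 25.7), 44.0 times at 98 d (42.4 to 45.7) and 74.4 times at 161 d (70.5 to 78.6). The 3 intervals did not overlap. The ratio was 1.80 times as large at 98 d as at 63 d (exact conditional 95% interval 1.69 to 1.91), 1.69 times as large at 161 d as at 98 d (1.58 to 1.81) and 3.04 times as large at 161 d as at 63 d (2.83 to 3.27). How much of this lay in either family depends on the scaling. From 63 to 98 d the folds of the miR-10 and miR-196 sums were 1.68 and 0.935 by all listed reads, 1.38 and 0.770 by median of ratios, and 2.47 and 1.38 by clean reads.

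Each of the 4 single ratios of a miR-10 to a miR-196 member was highest at 161 d. ssc-miR-10b exceeded ssc-miR-196a 45.3, 69.9 and 139.9 times at 63, 98 and 161 d, and it exceeded ssc-miR-196b-5p 43.7, 92.8 and 129 times. ssc-miR-10a-5p exceeded ssc-miR-196b-5p 4.43, 9.64 and 14.0 times. ssc-miR-10a-5p and ssc-miR-196a, of which one hairpin each lies in the HOXB cluster, stood at 4.59, 7.26 and 15.2.

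Within the miR-10 family the 5p members kept nearly the same ratio. The ratio of ssc-miR-10a-5p to ssc-miR-10b was 0.101, 0.104 and 0.108 in the order of age, with intervals of 0.098 to 0.105, 0.102 to 0.106 and 0.106 to 0.111. It was 1.07 times as large at 161 d as at 63 d (1.03 to 1.11). The ratio of ssc-miR-196a to ssc-miR-196b-5p was 0.964, 1.328 and 0.923, with intervals of 0.877 to 1.060, 1.230 to 1.434 and 0.829 to 1.029. Thus the 98 d library held more ssc-miR-196a for its ssc-miR-196b-5p than the other libraries, by 1.38 times over 63 d (1.22 to 1.56). At 161 d the ratio was 0.695 of that at 98 d (0.609 to 0.794) and 0.957 of that at 63 d (0.830 to 1.11), the last interval including 1.

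**Figure D4:**
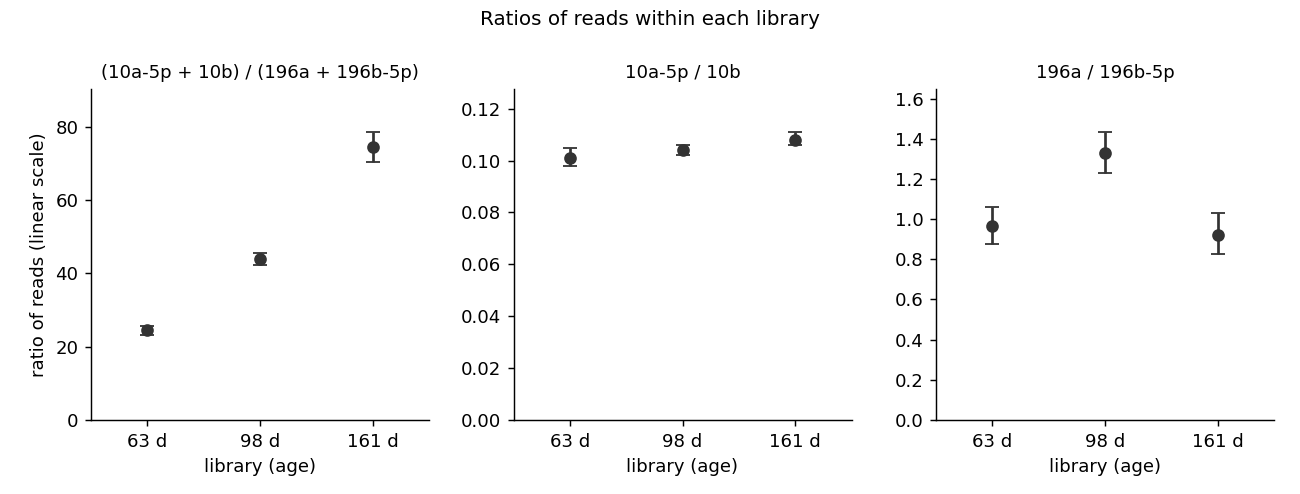
Ratios of reads within each library (vertical axes, linear from 0) at 63, 98 and 161 d (horizontal axes), with bars for the 95% Clopper-Pearson interval of counting error. The ratio of miR-10 to miR-196 5p reads (left) goes from 24.5 to 44.0 and 74.4, that of ssc-miR-10a-5p to ssc-miR-10b (middle) stays between 0.101 and 0.108, and that of ssc-miR-196a to ssc-miR-196b-5p (right) is highest at 98 d, at 1.328.

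By all listed reads, ssc-miR-1 (fold 2.56) and ssc-miR-208b (2.12) of the 6 muscle fibre miRNAs were past the limit from 63 to 98 d, against 17.0% of all miRNAs tested. From 98 to 161 d ssc-miR-206 (0.486) was past it, against 14.6%. Markers of other cell types differed between the libraries as well. The endothelial miRNAs (2 of 2 listed, ssc-miR-126-3p and ssc-miR-126-5p) summed to 5833, 9769 and 6759 RPM. Their sum had a fold of 1.67 from 63 to 98 d (1.33 for ssc-miR-126-3p and 1.88 for ssc-miR-126-5p) and of 0.692 from 98 to 161 d. The erythroid miRNAs (2 of 2, ssc-miR-451 and ssc-miR-144) summed to 808, 1491 and 1069 RPM, a fold of 1.85 from 63 to 98 d. The smooth muscle miRNAs (2 of 2, ssc-miR-143-3p and ssc-miR-145-5p) summed to 9380, 11823 and 27194 RPM, a fold of 2.30 from 98 to 161 d. Most of each sum was ssc-miR-143-3p, at 8916, 11451 and 26506 RPM (folds 1.28 from 63 to 98 d and 2.31 from 98 to 161 d). ssc-miR-145-5p stood at 464, 372 and 688 RPM, with folds of 0.802 and 1.85 in these pairs. The fibroblast miRNAs (3 of 3, led by ssc-miR-199a-3p) summed to 6976, 7628 and 6611 RPM. No defining marker was at 0. The part of these differences in the miR-10 and miR-196 levels was not tested.

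The relatives of each family were read beside the members. The 3 names of the miR-99 and miR-100 seed summed to 1430, 1836 and 1614 RPM at 63, 98 and 161 d. By all listed reads 1 of 3, ssc-miR-99a, was past the limit from 63 to 98 d (fold 2.06), against 17.0% of all miRNAs tested. ssc-miR-100 was at 534, 778 and 737 RPM, with folds of 1.46, 0.948 and 1.38 from 63 to 98 d, 98 to 161 d and 63 to 161 d, each in the direction of the miR-10 sum by all listed reads. ssc-miR-99b stood at 722, 700.1 and 614 RPM. The 8 names of the let-7 seed summed to 84006, 90909 and 60481 RPM, and none of the 8 was past the limit in any pair. From 98 to 161 d all 8 had a fold below 1, from 0.587 for ssc-let-7f to 0.823 for ssc-let-7e, in the scale of all listed reads. In that scale the median fold of all miRNAs tested was below 1 as well, at 0.809. By the scaling of the authors every fold of this pair was 1.24 times as large, so the direction of those nearest 1 depends on the scaling. In RPM the let-7 sum was lowest at 161 d, as the miR-196 members were, with a fold from 63 to 161 d of 0.720.

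The miRNAs whose course over the 3 libraries was most like that of a member were found by the distance between log2 RPM values centred over the libraries, among 141 others with at least 100 reads in each library. With 3 libraries this likeness is a description only. ssc-miR-10a-5p and ssc-miR-10b lay at a distance of 0.07 from each other. ssc-miR-10b was nearest to ssc-miR-135 (distance 0.08), ssc-miR-365-3p and ssc-miR-132 (both 0.11). ssc-miR-10a-5p was nearest to ssc-miR-365-3p (0.07), ssc-miR-137 and ssc-miR-497 (both 0.08). ssc-miR-365-3p itself stood at 458, 842 and 770.5 RPM.

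ssc-miR-196a and ssc-miR-196b-5p were less alike, at a distance of 0.41. ssc-miR-196a was nearest to ssc-miR-130b (0.07), at 109, 110.4 and 52.6 RPM, followed by ssc-miR-19b and ssc-miR-369 (both 0.21). ssc-miR-196b-5p was nearest to ssc-miR-136 (0.03), ssc-let-7i (0.05) and ssc-miR-1468 (0.06). ssc-let-7i, a relative by seed, stood at 7989, 6190 and 4285 RPM. The distances between a miR-10 and a miR-196 5p member were 1.13 to 1.23.

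Mature ssc-miR-196a can be made from either of 2 hairpins, and reads of the mature sequence itself fit both. The bases around it are shown because they alone tell the hairpins apart, with 4 bases on each side of the mature sequence and the bases that differ in capitals.

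ssc-mir-196a-1: gAAttaggtagtttcatgttgttgggCCtg
ssc-mir-196a-2: gGCttaggtagtttcatgttgttgggATtg

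The pipeline divided reads that fit both hairpins between them, and 286.0, 513.5 and 216.3 reads were assigned to ssc-mir-196a-1 at 63, 98 and 161 d, against 575.0, 1032.0 and 438.3 to ssc-mir-196a-2. The excess at ssc-mir-196a-2 was 33.6, 33.5 and 33.9% of all ssc-miR-196a reads in the order of age. The Wilson intervals of these shares (30.5 to 36.8, 31.2 to 35.9 and 30.4 to 37.6) overlapped, so that no difference between ages was detectable at this depth. Undivided, ssc-mir-196a-1 held 573, 1025 and 431 reads over its whole length, about 2 times its divided reads, as when nearly all its reads also fit the other hairpin. Among reads without mapping error, where an added base has to match the hairpin, the excess at ssc-mir-196a-2 was 36.4, 37.0 and 39.4%. The base after the mature sequence is A in ssc-mir-196a-2 and C in ssc-mir-196a-1, and an A added to the 3′ end after processing cannot be told apart from the A of the hairpin.

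The 2 arms of a hairpin were very unequal. The 3p arm made up 0.278, 0.329 and 0.121% of ssc-miR-10a reads in the order of age. The Wilson interval of the last library (0.0691 to 0.211) lay below that of 98 d (0.239 to 0.453) and overlapped that of 63 d (0.155 to 0.496). The ratio of ssc-miR-10a-3p to ssc-miR-10a-5p at 161 d was 0.367 of that at 98 d (0.174 to 0.720), on 12 and 37 reads of the 3p arm. For ssc-miR-196b the 3p arm made up 0.446, 0.428 and 0.977%, with overlapping intervals. The representative read of ssc-miR-196b-3p began 1 base before the mature sequence in each library, as in tCGACAGCacgacactgccttca at 98 and 161 d. Its bases 2 to 8 were therefore CGACAGC in place of GACAGCA, on 2, 2 and 4 copies.

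The 5p members differed in how uniform their reads were. The mature sequence itself was the representative read of all 4 in each library. It made up 67.8, 70.9 and 70.4% of ssc-miR-10b reads and 50.2, 55.6 and 58.1% of ssc-miR-10a-5p reads at 63, 98 and 161 d. For ssc-miR-196a the shares were 39.5, 36.8 and 36.8%, and for ssc-miR-196b-5p 39.9, 34.8 and 36.9%. The medians over all porcine miRNAs with at least 100 reads were 55.9, 53.9 and 56.4%. Hence the miR-196 members lay below the median in each library and ssc-miR-10b above it. The intervals of ssc-miR-10a-5p did not overlap between 63 d (48.6 to 51.7) and 98 d (54.7 to 56.5) or between 98 and 161 d (57.1 to 59.1).

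Reads without mapping error made up 89.8 to 90.2% of ssc-miR-10b, 82.7 to 85.2% of ssc-miR-10a-5p, 71.0 to 74.6% of ssc-miR-196a and 67.4 to 69.2% of ssc-miR-196b-5p. The median over all porcine miRNAs with at least 100 reads was 83.9 to 84.5%. Because the members of a family differ by 1 base, a single error at position 12 could move a read from one to the other. Such a read would match the other member without mapping error, so neither of the counts below can remove or reveal it. With reads without mapping error only, the ratio of ssc-miR-10a-5p to ssc-miR-10b was 0.093, 0.096 and 0.102, and that of ssc-miR-196a to ssc-miR-196b-5p was 1.059, 1.375 and 0.973. Counted on representative reads alone, the first ratio was 0.075, 0.081 and 0.089.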

How the data were processed

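For each age, 1 pooled small RNA library of psoas major was available. The authors filtered and mapped the reads to miRBase hairpins and the pig genome with ACGT101-miR 4.2. The deposited expected counts are the reads of all isoforms at an arm, with reads at several hairpins divided between them. The deposited files also give counts, the copies of the representative read. Neither is normalised. In the 98 and 161 d files the header is shifted by 1 cell against the values, and the column of expected counts was identified there by its position and values. The genome build is not given in the sources used here.

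Rows of 1 name were summed, divided by all reads listed in the file and given as RPM. Expected counts were rounded for intervals. Intervals are at 95% and cover counting error only, and PCR copies are not independent molecules. Alternatives were other scalings, the clean reads and the authors' factors being taken from the study's supplement, 1 hairpin per miRNA, error-free or representative reads, and other limits. TMM (edgeR 4.0.16) and median of ratios (DESeq2 1.42.0) served for scaling alone, in R 4.3.3. Other steps ran in Python 3.11.15 (scipy 1.17.1 for intervals, pandas 2.3.3 for tables, numpy 2.4.6, and matplotlib 3.10.9 for plots), and the fold calculation was tested on simulated data.

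All members were named, with their seed relatives, fixed cell type markers and, for each 5p member, the 3 miRNAs of nearest course. Members and lists were chosen with earlier results of these data known.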

Additional observations from a re-analysis of the deposited data

Results flagged for a closer look

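The 3p arm of ssc-mir-10b was listed under a human name, hsa-miR-10b-3p, and was therefore outside the porcine names compared. In the order of age it had 18, 59 and 64 reads, or 12.3, 24.4 and 28.5 RPM, each above the limit of 3 reads. It made up 0.0461, 0.0546 and 0.0698% of the reads of both arms, with overlapping Wilson intervals (0.0292 to 0.0729, 0.0423 to 0.0704 and 0.0547 to 0.0892). The study has no control samples to set beside this level.

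Its sequence was aCAGATTCgattctaggggaat, with bases 2 to 8 in capitals, in all 3 libraries.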

How the results depend on the processing

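Other scalings moved the folds of the summed 5p members. For miR-10 the folds from 63 to 98 d, 98 to 161 d and 63 to 161 d were 2.47, 0.767 and 1.90 by clean reads, 1.55, 1.14 and 1.77 by the scaling of the authors, 1.48, 1.11 and 1.64 by TMM, 1.38, 1.14 and 1.58 by median of ratios, and 1.49, 1.05 and 1.56 without ssc-miR-133a-3p. For miR-196 they were 1.38, 0.454 and 0.624 by clean reads and 0.862, 0.675 and 0.582 by the scaling of the authors. From 63 to 98 d and 98 to 161 d they were 0.825 and 0.654 by TMM, 0.770 and 0.674 by median of ratios, 0.831 and 0.619 without ssc-miR-133a-3p, and 0.862 and 0.595 with 1 hairpin per miRNA. The number of members past 2-fold from 63 to 98 d (1 as reported) was 3 by clean reads, 3 with a limit of 1.5, and 0 under the other 4 scalings and with at least 100 reads. The counts over all miRNAs moved too. Of all 247, 101 were up and 2 down by clean reads, and 84 up and 31 down with a limit of 1.5. Under the other 4 scalings 17 to 24 were up and 16 to 23 down. With at least 100 reads 20 of 187 were up and 3 down. From 98 to 161 d (2 as reported) the number of members was 1 under the 4 scalings other than clean reads and with at least 100 reads. It was 4 with a limit of 1.5. Of all 247 miRNAs, 8 to 13 were up and 15 to 26 down under those 4 scalings, and 15 up and 71 down with the limit of 1.5. With at least 100 reads 3 of 195 were up and 19 down. From 63 to 161 d (1 as reported) the number of members was 0 under those 4 scalings and 4 with a limit of 1.5. It was 1 by clean reads, where ssc-miR-10a-5p (fold 2.01) took the place of ssc-miR-196a. Of all 243 miRNAs, 18 to 26 were up and 22 to 26 down under those 4 scalings. By clean reads 37 were up and 16 down, and with the limit of 1.5 these counts were 49 and 63. The ratio of miR-10 to miR-196 5p reads at 63, 98 and 161 d was 36.4, 71.1 and 109.7 with 1 hairpin per miRNA, which leaves out the reads of ssc-mir-196a-2, 30.7, 55.6 and 96.5 with reads without mapping error, and 40.9, 85.1 and 139.7 with representative reads, in the same order of ages each time. Besides the construction of the 1-hairpin setting, the cause of these shifts was not tested.

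No paired analysis was possible because each age had 1 library, and for the same reason no library was left out in turn. The depth limits the 3p arms above all, with 4 to 37 reads.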
